A study of Homo sapiens with 18 samples.

Results

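Sharp promoters are places where the capped ends of the RNAs from a gene fall within a few bases of each other. Here a sharp promoter was any row of the promoter table whose name gave an end minus start of 12 bases or less and which held 100 or more raw tags summed over the 18 libraries. This rule found 550 of 42133 promoters. Because the members were chosen by their width and their tag total, both are described below and not tested. The tags came from CAGE (cap analysis of gene expression), which reads a short tag at the capped end of each RNA. A tag count thus measures the RNA ends found at a place and not the rate at which transcription began there. Total RNA came from myeloid leukaemia cell lines labelled AML3 and AML2 and named OCI-AML3 and OCI-AML2 in the tables. Each line was given OTX015, JQ1 or vehicle (DMSO), with 3 libraries for each of the 6 groups. The title names the mutated, cytoplasmic form of nucleophosmin (NPM1c+). It is known from other work that OCI-AML3 carries the mutation and OCI-AML2 does not, but the labels give no genotype. They give no dose, time or source of the replicates either, so p-values measure the spread between libraries, which may be technical. Each line is a single established line and is the only one of its kind here.

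OTX015, also known as birabresib, and JQ1 are thienotriazolodiazepine compounds. Both block the pocket by which BET bromodomain proteins hold acetyl-lysine. These proteins bind acetylated histones and help RNA polymerase II to leave promoters. They share the ring core and differ in the side chain, which is a tert-butyl ester in JQ1 and a hydroxyphenyl amide in OTX015. In textbook accounts, starts confined to a few bases are typical of genes with a TATA box a short way upstream, such as histone genes, and of the pyrimidine-rich starts (terminal oligopyrimidine, TOP) of ribosomal protein genes. Most promoters of broadly expressed genes instead lie in CpG islands and start over a wider stretch of bases.

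Sequences are shown for promoters whose values are given below, to let the letters around TATA-box and TOP starts be compared. Each runs from 45 bases before to 15 bases after the start of the gene in RefSeq (GRCh38.p14), along the strand of the gene, and capitals mark the letters TATAAA or, failing those, TATAA between 40 and 16 bases before the start. The histone genes HIST2H2AA3 (chr1:149842736-149842795, minus strand) and HIST2H2BF (chr1:149812356-149812415, minus), HEXIM1 (chr17:45148430-45148489, plus), EEF2 (chr19:3985449-3985508, minus), RPLP0 (chr12:120201097-120201156, minus), SNHG19 (chr16:2155344-2155403, minus), PADI4 (chr1:17308152-17308211, plus), ZFAS1 (chr20:49278597-49278656, plus) and S100A6 (chr1:153535977-153536036, minus) held one of these motifs.
HIST2H2AA3: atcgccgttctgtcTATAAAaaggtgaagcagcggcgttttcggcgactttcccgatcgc
HIST2H2BF: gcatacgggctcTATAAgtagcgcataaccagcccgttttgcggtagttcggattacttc
HEXIM1: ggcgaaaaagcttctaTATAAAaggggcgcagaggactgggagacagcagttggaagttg
EEF2: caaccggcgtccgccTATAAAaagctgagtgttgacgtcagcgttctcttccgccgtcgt
RPLP0: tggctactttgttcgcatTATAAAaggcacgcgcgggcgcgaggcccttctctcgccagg
SNHG19: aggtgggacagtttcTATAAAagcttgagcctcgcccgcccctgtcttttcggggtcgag
PADI4: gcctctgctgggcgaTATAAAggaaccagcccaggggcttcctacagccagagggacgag
ZFAS1: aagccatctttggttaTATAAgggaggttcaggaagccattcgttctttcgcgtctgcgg
S100A6: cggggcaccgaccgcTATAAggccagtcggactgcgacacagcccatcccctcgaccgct
The ribosomal protein genes RPL28 (chr19:55385887-55385946, plus), RPS16 (chr19:39435935-39435994, minus), RPL35 (chr9:124861943-124862002, minus), RPS14 (chr5:150449725-150449784, minus) and RPS7 (chr2:3575215-3575274, plus), with TPT1 (chr13:45341169-45341228, minus) and ZNF143 (chr11:9460967-9461026, plus), held neither motif in that window.
RPL28: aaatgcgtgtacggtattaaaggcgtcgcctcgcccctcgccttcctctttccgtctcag
RPS16: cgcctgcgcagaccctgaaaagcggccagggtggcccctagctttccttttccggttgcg
RPL35: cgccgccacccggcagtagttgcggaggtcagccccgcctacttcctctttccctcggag
RPS14: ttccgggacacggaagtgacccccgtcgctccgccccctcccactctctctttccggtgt
RPS7: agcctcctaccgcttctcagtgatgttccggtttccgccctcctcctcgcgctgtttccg
TPT1: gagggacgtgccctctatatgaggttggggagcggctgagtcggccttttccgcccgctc
ZNF143: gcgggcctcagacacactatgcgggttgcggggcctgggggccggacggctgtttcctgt
The promoters themselves carry hg19 coordinates, which cannot be placed on these GRCh38 letters, so the sequence belongs to the gene's RefSeq start and not to the measured start.

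Across genes, TATAA was more frequent where the sharp start was the gene's main start. A main start held 50% or more of the tags of its protein-coding gene and a minor start under 10%. Of 40 genes with a main sharp start and a RefSeq promoter, 32.5% held TATAA in that window and 20% held TATAAA, against 3.79% and 2.27% of 132 genes with a minor sharp start. Of 6369 genes whose main promoter was wider, 3.01% held TATAA, and of all 27305 RefSeq promoters 4.22% did. CCAAT, searched on both strands between 150 and 30 bases before the start, was held by 47.5% of genes with a main sharp start, 29.5% of those with a minor one, 26.7% of those with a wider main promoter and 21.9% of all. The GC box GGGCGG, searched on both strands over the 150 bases before the start, was held by 72.5%, 64.4%, 62.6% and 36.7% in the same order, so that sharp and wider main promoters were close. The TOP letters, a C followed by 5 pyrimidines and beginning within 5 bases of the start, were held by 22.5%, 23.5%, 10.4% and 10.2%, and by 77.8% of 18 ribosomal protein genes with a sharp start. Of 11 histone genes 63.6% held TATAA and 90.9% CCAAT. These shares were not tested. A match describes letters and is not a bound site, and the windows of the motifs can overlap.

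The 550 sharp promoters held 1894894 tags, 10.3% of all promoter tags. Tags were concentrated in a few of them: the median was 209, 84 held 1000 or more, and the 10 with the most tags held 49.9% of the sum. Just inside the tag limit lay 36 members with under 110 tags, and just outside it 74 promoters of the same widths with 90 or more. A width of exactly 11 was the most frequent, with 239 members, and the 106 promoters of width 13 with 100 or more tags had a median of 194.5 tags, beside 203 for the 71 members of width 12. Of 77 protein-coding members of width 1 to 8 with a known share, 30 were the main start of their gene and 30 a minor start. Of 271 of width 9 to 12, 21 were main and 140 minor.

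Gene symbols were found by matching tag counts between the promoter and gene tables, which gave 435 members a gene and left 115 without one. Among 390 nuclear members matched this way, 80.5% belonged to protein-coding genes, 13.1% to pseudogenes and 3.33% to small RNA genes. Among 10760 other promoters of 100 or more tags the shares were 95.3%, 0.864% and 0.307%. A further 20 members lay on the mitochondrial chromosome. Pseudogenes, histone genes and small nuclear RNA genes have near-identical copies, so where their reads were placed is uncertain. Most sharp promoters were not isolated: 396 had another promoter within 500 bases on the same strand, and 46 of these held most of the tags of their cluster. The median member held 13.2% of the tags of its gene. Of the members that were not the gene's most tagged start, 106 lay downstream of it (median distance 34.5 bases) and 174 upstream (median 36).

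The 18 libraries held 313300 to 2180812 promoter tags, and the shallowest were the third OTX015 and JQ1 libraries of AML3. Of 12 myeloid marker genes, 11 had tags, while T-cell, erythroid and epithelial markers were at 0. In AML3 sharp promoters took 10.3%, 9.55% and 7.53% of promoter tags with OTX015, 10.3%, 10.4% and 7.89% with JQ1, and 10.1%, 10.6% and 11% with vehicle. In AML2 they took 10.7%, 11.2% and 11.5% with OTX015, 11.2%, 11.4% and 11.8% with JQ1, and 9.48%, 9.33% and 9.53% with vehicle. All 6 drug libraries of AML2 lay above the 3 vehicle libraries, while in AML3 the drug and vehicle libraries overlapped and library 3 of each drug was lowest. In an exact two-sided permutation test the AML2 differences of 1.7 (OTX015) and 2.0 percentage points (JQ1) each gave p = 0.1, the smallest that 3 against 3 libraries allow, and 0.22 after adjustment over the 11 comparisons made. By the exact permutation test within lines, the drug effect on the share, AML3 minus AML2, was −3.13 points for OTX015 (p = 0.01) and −3.02 for JQ1 (p = 0.02), and both gave 0.11 after adjustment, so none of the 11 passed. Drug and vehicle labels were permuted within each line. These p-values thus refer to no drug effect in either line and do not test whether the effects were equal. Without the third drug libraries of AML3, the drug differences there were −0.628 (OTX015) and −0.208 points (JQ1). Leaving out the 10 most tagged members gave 5.26, 5.31 and 5.51% in AML3 and 5.85, 5.67 and 5.28% in AML2, each in the order OTX015, JQ1 and vehicle.

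**Figure D1:**
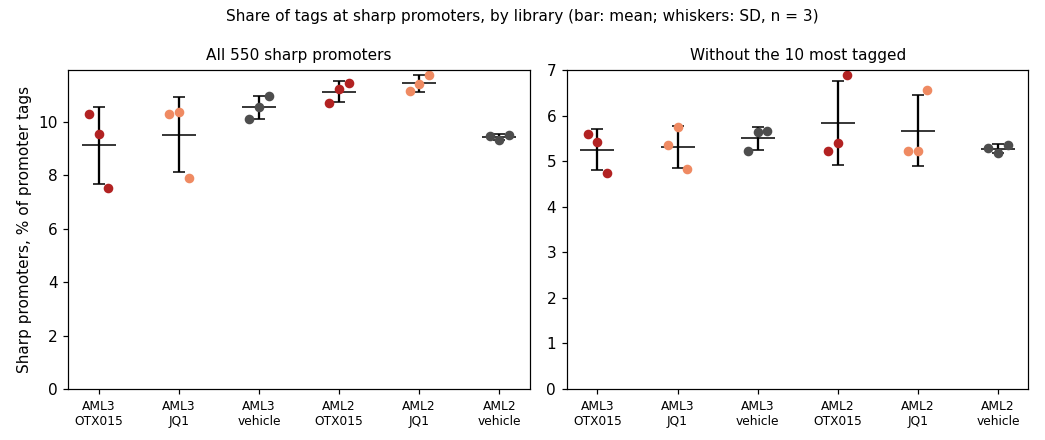
Share of all promoter tags that fell at sharp promoters, in percent, for each library (points) with the mean and SD of 3 libraries (bar and whiskers), for all 550 sharp promoters (left) and without the 10 most tagged (right). In AML2 the drug libraries lie above the vehicle libraries on the left, and in AML3 the third OTX015 and JQ1 libraries, at 7.53% and 7.89%, lie below the others.

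The members that make up this share moved in opposite directions. Mitochondrial members took 1.25 ± 0.334% of promoter tags with OTX015 and 1.32 ± 0.129% with JQ1, against 0.333 ± 0.0968% with vehicle in AML3 (SD, n = 3). In AML2 they took 0.549 ± 0.189% and 0.547 ± 0.169%, against 0.228 ± 0.0646% with vehicle. Protein-coding members took less with drug in AML3 (6.16% with OTX015 and 6.34% with JQ1, against 8.03% with vehicle) and more in AML2 (8.65% and 8.86%, against 7.11% with vehicle). Pseudogene members took 0.994% and 1.16%, against 1.68% with vehicle in AML3. These shares by class were not tested.

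To ask which sharp promoters responded, the whole promoter table was fitted in 1 model of the 6 groups with edgeR's quasi-likelihood test, and p-values were adjusted (Benjamini-Hochberg) over all 12867 promoters tested, with 0.05 as the threshold. CPM below are tags scaled to library size with TMM factors, as edgeR computes them, and ± after a log2 fold change is its standard error. Of the 550 members 491 passed the filter on low counts and 59 did not, so counts below refer to the 491. With OTX015 in AML3, 114 rose and 193 fell, against 28.4% of all promoters tested that rose and 25.8% that fell. With JQ1 in AML3, 108 rose and 183 fell (26.5% and 23.8% of all). With OTX015 in AML2, 106 rose and 137 fell (20.5% and 20% of all), and with JQ1 in AML2, 92 rose and 128 fell (17.1% and 18.1% of all). The share of members that fell was 39.3%, 37.3%, 27.9% and 26.1% in that order, above the share of all promoters each time, and the median log2 change of members was −0.57, −0.46, −0.15 and −0.09 in the same order, beside 0.02, 0.03, 0.02 and 0 over all promoters. No test of the difference in shares was made. Members were chosen on raw tags summed over libraries of unequal depth. In both lines each vehicle library held more promoter tags than the drug libraries of the same number. With a median of 209 tags per member, starts high with vehicle passed the tag limit more easily, which can tilt members towards falls. How far it did was not tested, here or for the groups of members below. The other promoters compared by width below met the same tag limit. Without any filter, 201, 191, 136 and 120 of the 550 fell and 108, 101, 101 and 93 rose. Over all 42133 promoters 4171, 3712, 2811 and 2392 fell then and 4640, 4095, 3080 and 2374 rose. With the first and second libraries of each group alone, 204, 180, 149 and 143 of 534 fell and 115, 109, 121 and 107 rose. Over all 13663 promoters tested with these libraries 3648, 3287, 2824 and 2545 fell and 3624, 3279, 2877 and 2544 rose. The OTX015 and JQ1 comparisons of a line share their vehicle libraries.

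The share that fell was compared by width, without a test. With OTX015 in AML3, 38.8% of members of width 1 to 5, 39.4% of width 6 to 10 and 39.5% of width 11 to 12 fell, beside 25.9% of other promoters of width 13 to 20, 27.8% of 21 to 40 and 26.5% of those over 40, all with 100 or more tags. With JQ1 in AML2 the shares were 28.6%, 21.3% and 27.4%, beside 14.4%, 18.8% and 19.7%, so that members of width 6 to 10 lay nearer to the wider promoters.

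By kind of start the counts were as follows, and no test of the difference between kinds was made. Of 138 minor starts of protein-coding genes, 73 fell and 9 rose with OTX015 in AML3, 72 and 7 with JQ1 in AML3, 61 and 17 with OTX015 in AML2, and 57 and 15 with JQ1 in AML2. Their median log2 changes were −1.24, −1.14, −0.91 and −0.79. These 138 include 22 starts of ribosomal protein genes, nearly all of which fell, as given below, so the counts are not those of minor starts in general. Of 48 main starts, 16 fell and 12 rose with OTX015 in AML3 (median −0.46), and 7 fell and 8 rose with JQ1 in AML2 (median 0.15). Over all promoters tested 25.8%, 23.8%, 20% and 18.1% fell in the order used for the minor starts, and 28.4%, 26.5%, 20.5% and 17.1% rose. The JQ1 counts of main starts in AML2 lie near these shares. Small RNA and mitochondrial starts went the other way, and pseudogene starts fell, as described by group below. These medians moved by 0.05 or less when members with a group at 0 tags were set to the bound that 3 tags over the group allow. The exceptions were the starts with no gene (0.27 against 0.01 with JQ1 in AML3) and all members (−0.57 against −0.50 with OTX015 in AML3).

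Wider minor starts fell too. Among 314 other promoters of 100 or more tags that held under 10% of the tags of a protein-coding gene, 39.5% fell and 9.24% rose with OTX015 in AML3 (median −0.87), and 31.8% fell and 14% rose with JQ1 in AML2 (median −0.27). Without ribosomal protein genes 282 of these wider minor starts remained. Of them 34.4% fell and 10.3% rose with OTX015 in AML3 (median −0.63), and 27.3% fell and 15.6% rose with JQ1 in AML2 (median −0.20). Among 7568 other main promoters the shares that fell were 27.4% and 19.2%. Pseudogenes differed: of 90 wider pseudogene promoters 47.8% rose and 17.8% fell with OTX015 in AML3, while none of 47 sharp pseudogene starts rose. No test of the difference between sharp and wider promoters was made.

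**Figure D2:**
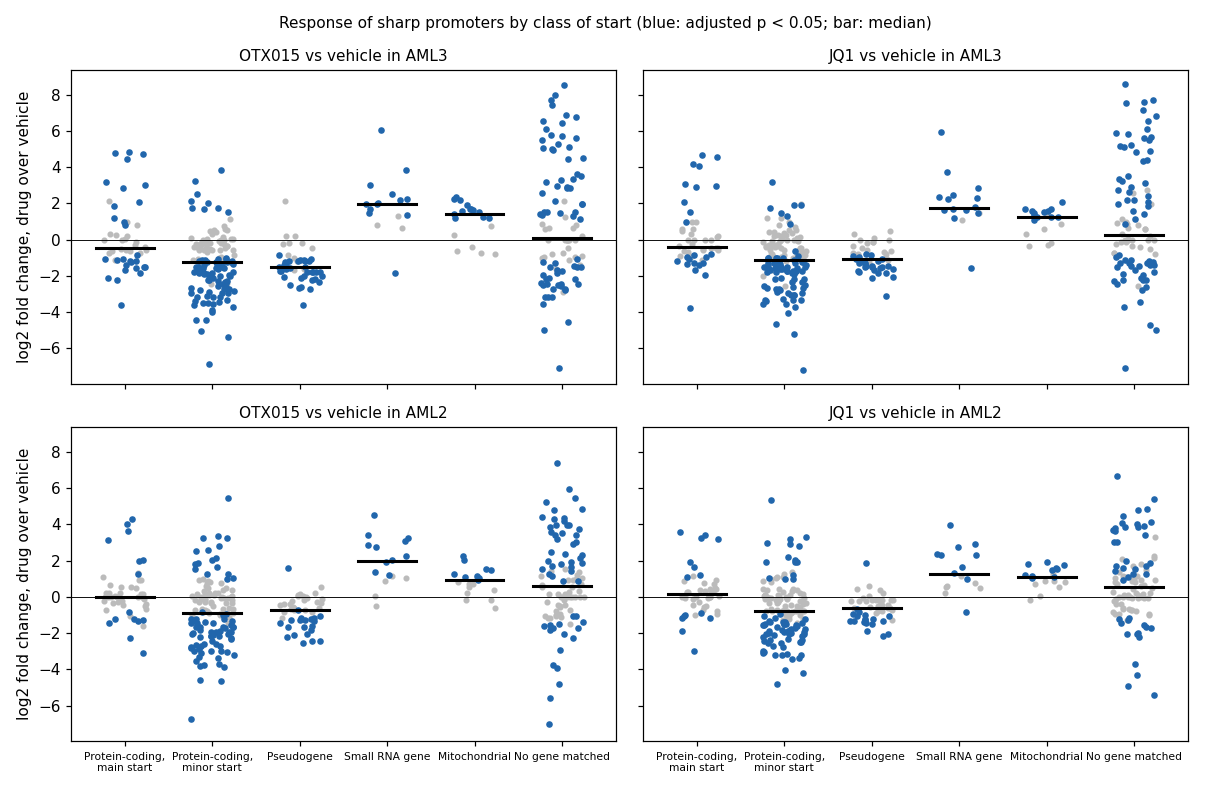
Log2 fold change of each tested sharp promoter, drug over vehicle, by class of start, in 4 panels for OTX015 and JQ1 in AML3 (top) and AML2 (bottom). Blue points passed adjusted p under 0.05, grey did not, and bars are medians. Minor starts and pseudogenes lie mostly below 0 in each panel, with medians of −1.24 and −1.53 with OTX015 in AML3, and small RNA and mitochondrial starts mostly above it, with medians of 1.98 and 1.43.

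Of the 10 sharp promoters with the highest mean CPM, only FTH1 and the mitochondrial RNR2 passed the test in both lines. The promoter of HIST2H2AA3, a histone H2A gene (hg19 chr1:149814314-149814324, minus), had 9025, 8268 and 4733 CPM with OTX015 and 10079, 9986 and 5246 with JQ1 in AML3, against 17662, 18076 and 26098 with vehicle. In AML2 it had 16789, 17693 and 7403 CPM with OTX015 and 16766, 18571 and 9508 with JQ1, against 13712, 13722 and 15410 with vehicle. The AML3 libraries did not overlap and it fell there (−1.49 ± 0.48 with OTX015, adjusted p = 0.011, and −1.29 ± 0.48 with JQ1, 0.0274), while in AML2 the libraries overlapped (−0.03 and 0.07). ACTB (cytoplasmic beta-actin, chr7:5570229-5570234, minus) had 2025, 1872 and 1120 CPM with OTX015 and 2505, 2762 and 1503 with JQ1 in AML3, against 6188, 5864 and 5708 with vehicle. It fell by 1.82 ± 0.40 with OTX015 (adjusted p = 0.000385) and by 1.39 ± 0.39 with JQ1 (0.00453) there, and its AML2 changes were −0.25 and 0.39 (adjusted p = 0.644 and 0.464).

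TPT1, which encodes the translationally controlled tumour protein, had 4784, 4175 and 1711 CPM with OTX015, 4437, 4795 and 1752 with JQ1, and 2767, 2854 and 3282 with vehicle in AML3. In AML2 it had 11098, 14616 and 11862 CPM with OTX015 and 12092, 13248 and 12724 with JQ1, against 8078, 5464 and 6275 with vehicle. No drug library of AML2 overlapped the vehicle ones, yet neither change passed (0.92 and 0.94, adjusted p = 0.099 and 0.102). RPS20 and RPL28, both ribosomal protein genes, did not pass in any drug comparison: RPL28 had 5574, 6667 and 1817 CPM with OTX015, against 6010, 7250 and 5402 with vehicle in AML3. FTL, the ferritin light chain, did not pass either, with 2968, 4239 and 11757 CPM with OTX015, against 2538, 2319 and 2784 with vehicle in AML2 (1.31, adjusted p = 0.0713).

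FTH1, the ferritin heavy chain that stores iron (chr11:61735103-61735112, minus, 99.3% of the gene's tags), rose in all 4 comparisons. It had 3307, 3191 and 4244 CPM with OTX015 and 2696, 3310 and 4688 with JQ1 in AML3, against 790, 847 and 905 with vehicle. In AML2 it had 5866, 6386 and 12673 CPM with OTX015 and 5087, 4181 and 9085 with JQ1, against 595, 364 and 560 with vehicle. Its drug and vehicle libraries were far apart in both lines, with log2 changes of 2.08 ± 0.42 and 2.07 ± 0.42 in AML3 and 4.04 ± 0.46 and 3.60 ± 0.45 in AML2 (edgeR, adjusted p = 0.000183, 0.000223, 1.17e-07 and 6.92e-07). Its OTX015 effect was smaller in AML3 than in AML2 by 1.96 ± 0.58 (adjusted p = 0.0391).

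HEXIM1, an inhibitor of the elongation kinase P-TEFb, whose gene carries the TATAAA shown above, rose from its main sharp start (chr17:43225839-43225845, plus, 99% of the gene's tags). It had 287, 276 and 698 CPM with OTX015 and 248, 251 and 650 with JQ1 in AML3, against 18, 7.95 and 18.6 with vehicle. In AML2 it had 204, 230 and 530 CPM with OTX015 and 108, 115 and 228 with JQ1, against 13.9, 10.7 and 27.4 with vehicle. The log2 changes were 4.80 ± 0.52, 4.67 ± 0.52, 4.28 ± 0.51 and 3.18 ± 0.51 (adjusted p = 2.84e-08, 5.80e-08, 2.34e-07 and 1.89e-05). In each drug group the third library was the highest of the 3. ZNF143, a zinc-finger factor of small nuclear RNA and other promoters, had 51.3, 49.3 and 57.8 CPM with OTX015 and 38.0, 30.02 and 57.6 with JQ1 in AML3, against 3.0, 0.884 and 2.86 with vehicle (4.44 ± 0.45 and 4.07 ± 0.46). In AML2 it had 13, 21.5 and 34.1 CPM with OTX015 and 14.9, 14.2 and 32.0 with JQ1, against 2.61, 1.12 and 1.31 with vehicle (3.61 ± 0.54 and 3.44 ± 0.54).

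TUBA1B (alpha-tubulin, chr12:49525175-49525180, minus) was a main start that fell in all 4 comparisons. It had 459, 377 and 387 CPM with OTX015 and 453, 475 and 526 with JQ1 in AML3, against 2182, 1790 and 1680 with vehicle. The AML2 libraries had 870, 623 and 665 CPM with OTX015 and 785, 917 and 933 with JQ1, against 1329, 2055 and 2550 with vehicle. The groups did not overlap, and the log2 changes were −2.21 ± 0.32 and −1.96 ± 0.32 in AML3 and −1.46 ± 0.31 and −1.17 ± 0.31 in AML2.

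**Figure D3:**
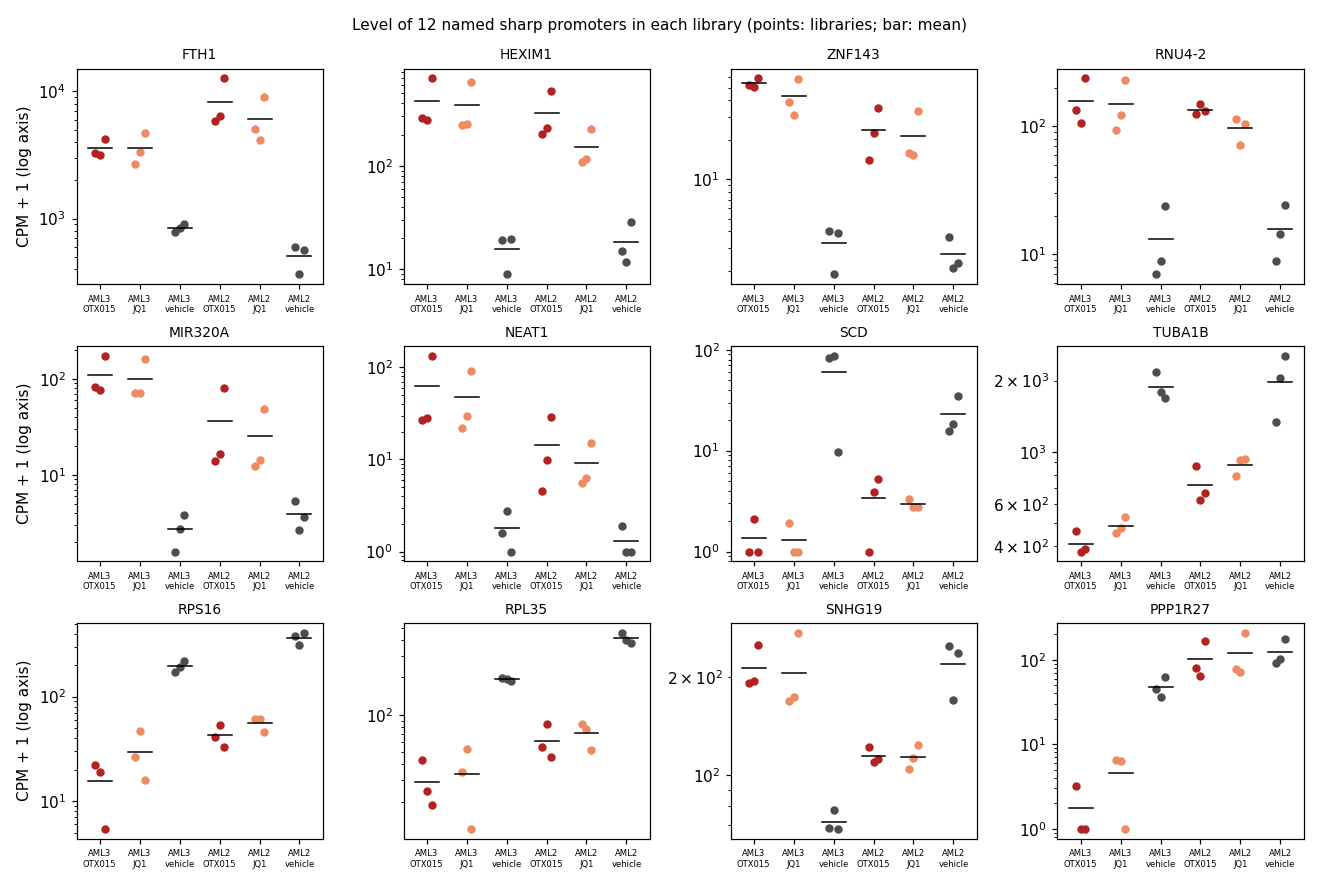
Level of 12 named sharp promoters in each library (points, CPM + 1 on a log axis; bar, mean of 3) in the order AML3 OTX015, JQ1 and vehicle and AML2 OTX015, JQ1 and vehicle. FTH1, HEXIM1, ZNF143, RNU4-2 and MIR320A lie higher with either drug than with vehicle in both lines, and TUBA1B, RPS16 and RPL35 lower, while SNHG19 is higher with drug in AML3 and lower in AML2.

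Sharp starts of ribosomal protein genes split by how much of the gene they carried. Of 29 such starts in 24 genes 28 were tested. Among the 6 that were main starts, 3 fell with OTX015 in AML3, 1 with JQ1 in AML3 and 0 in AML2, and RPL3, RPLP0 and RPL30 were the 3. Among the 22 that held under 50% of the gene's tags (each under 5%), 22 fell with OTX015 in AML3, 22 with JQ1 in AML3, 20 with OTX015 in AML2 and 21 with JQ1 in AML2, and none rose. Their median log2 changes were −2.99, −2.53, −2.79 and −2.49. The shares of all promoters tested that fell were 25.8%, 23.8%, 20% and 18.1% in the same order. A pair of RPS20 starts 2 bases apart differed by less than the sampling noise (chi-square per degree of freedom 0.0105), and counted as 1 it leaves 21 starts, of which 21, 21, 19 and 20 fell. Wider starts of ribosomal protein genes with under 50% of the gene's tags did the same: 33, 35, 29 and 29 of 38 fell, with medians of −2.07, −1.97, −2.24 and −2.09. Among 66 wider main promoters of these genes 44, 32, 12 and 8 fell, with medians of −1.19, −0.99, −0.61 and −0.54. With the first and second libraries alone, 22, 22, 21 and 21 of 23 minor sharp starts fell.

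RPS16, a small-subunit protein, had its sharp start 29 bases downstream of the main one (chr19:39926550-39926561, minus, 4.48% of the gene's tags). It had 21.2, 17.9 and 4.44 CPM with OTX015 and 25.3, 46.1 and 14.9 with JQ1 in AML3, against 172, 191 and 219 with vehicle. In AML2 its level was 40.04, 52.7 and 32.0 CPM with OTX015 and 59.6, 59.6 and 44.4 with JQ1, against 378, 311 and 407 with vehicle. Groups were wide apart in both lines, and the changes were −3.58 ± 0.35, −2.69 ± 0.31, −3.09 ± 0.31 and −2.72 ± 0.30. RPL35, a large-subunit protein, had 42.3, 23.6 and 17.8 CPM with OTX015 and 33.5, 52.5 and 11.1 with JQ1 in AML3, against 197, 194 and 188 with vehicle, and fell by 2.73 ± 0.35 and 2.50 ± 0.33. RPS14 started at a sharp place with 0.47% of its tags, at 3.53, 0.975 and 2.13 CPM with OTX015 in AML2, against 45.3, 43.8 and 77.0 with vehicle. RPS7 had 0 CPM in all 3 OTX015 libraries of AML3, against 17.4, 17.7 and 8.59 with vehicle. The minor start of RPL30 and its main start 34 bases away differed: the main one had 2511, 1619 and 974 CPM with OTX015, against 1808, 1069 and 1531 with vehicle in AML2 (0.21), while the minor one fell by 3.35.

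**Figure D4:**
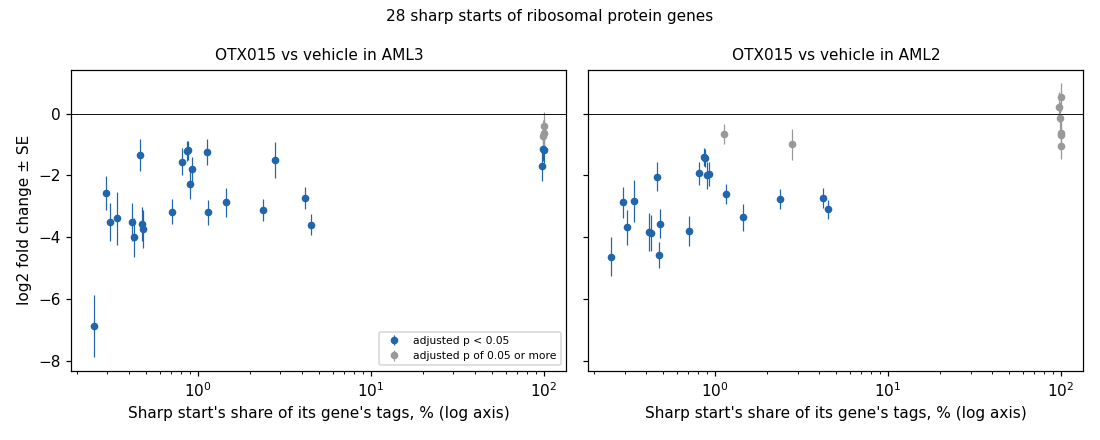
Log2 fold change with OTX015 (± SE) of 28 sharp starts of ribosomal protein genes in AML3 (left) and AML2 (right), against the start's share of its gene's tags in percent on a log axis. Blue points passed adjusted p under 0.05. The 22 starts with under 5% of the gene's tags lie at lower values than the 6 main starts near 100%, with medians of −2.99 in AML3 and −2.79 in AML2.

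Both tested members of the heat shock and chaperone list fell in all 4 comparisons, namely the sharp starts of CCT5, a subunit of the cytosolic chaperonin, and HSP90AB1. The CCT5 start held 142 tags, beside 4924 at a nearby promoter. Here and in the lists below, values are those of sharp starts and not of whole genes. HSP90AB1 had 261, 426 and 202 CPM with OTX015, against 527, 574 and 811 with vehicle in AML3 (−1.09), and 444, 452 and 680 with OTX015, against 1085, 1057 and 1571 with vehicle in AML2 (−1.24). Of 8 starts of translation factors and other TOP genes, 1 rose and 3 fell with OTX015 in AML3, with JQ1 in AML3 and with OTX015 in AML2, and 1 rose and 2 fell with JQ1 in AML2, with medians of −0.21, −0.10, 0.30 and 0.42. The one that rose each time was FTH1, described above. On this list COX7C, a cytochrome oxidase subunit, fell by 2.48 ± 0.44 and 1.72 ± 0.38 in AML3 and by 2.64 ± 0.36 and 2.26 ± 0.34 in AML2. EEF2, the elongation factor that moves the ribosome, did not pass from its main start (−0.30, −0.51, −0.33 and −0.03). Of 7 cytoskeleton starts, 6 fell with each drug in AML3 and 2 in AML2. To set beside these lists, 25.8% (OTX015) and 23.8% (JQ1) of all promoters tested fell in AML3, and 20% and 18.1% in AML2. The shares of all promoters that rose were 28.4%, 26.5%, 20.5% and 17.1% in the same order. The sharp start of PFN1, the actin-binding profilin, held 4250 tags, beside 29146 at a nearby promoter. It had 133, 123 and 77.8 CPM with OTX015, against 506, 500 and 331 with vehicle in AML3, and 192, 218 and 173 with OTX015, against 194, 255 and 326 with vehicle in AML2. Its effect differed between the lines by −1.58 ± 0.44 for OTX015 and −1.60 ± 0.44 for JQ1 (adjusted p = 0.0282 and 0.0259).

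Of 15 sharp starts of replication-dependent histone genes, which are transcribed in S phase, 11 fell with OTX015 and 8 with JQ1 in AML3, and none rose. Over all promoters tested there, 25.8% fell and 28.4% rose with OTX015, and 23.8% and 26.5% with JQ1. In AML2, 2 fell and 3 rose with OTX015, and 3 fell and 3 rose with JQ1. These AML2 counts lie near the shares over all promoters, of which 20% fell and 20.5% rose with OTX015, and 18.1% and 17.1% with JQ1. HIST2H2BF had 2518, 1659 and 989 CPM with OTX015 and 2889, 2022 and 1210 with JQ1, against 4418, 5717 and 4749 with vehicle in AML3 (−1.53 ± 0.43 and −1.28 ± 0.43). HIST2H3D (hg38 chr1:149813687-149813697, minus) had 121, 144 and 196 CPM with OTX015, against 256, 473 and 619 with vehicle in AML3 (−1.56 ± 0.33), and 201, 282 and 143 with OTX015, against 178, 160 and 240 with vehicle in AML2 (0.13 ± 0.32). The OTX015 effects on HIST2H3D differed between lines by −1.69 ± 0.46 (adjusted p = 0.0222). A rise was seen at HIST1H2APS5, a histone pseudogene on the list, with 38.9, 20.5 and 10.7 CPM with OTX015 and 30.9, 32.0 and 23.1 with JQ1, against 5.22, 9.54 and 9.14 with vehicle in AML2.

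Of 4 sharp starts of granule and myeloid effector genes, 3 fell with each drug in AML3 and 1 in AML2. Over all promoters tested 25.8% (OTX015) and 23.8% (JQ1) fell in AML3, and 20% and 18.1% in AML2, so the AML2 count is near that share. MS4A3, a membrane protein of granulocyte precursors, had 1.11, 0 and 0 CPM with OTX015, against 19.2, 20.3 and 17.2 with vehicle in AML3, and 0 in all 3 with OTX015, against 19.1, 12.9 and 10.4 with vehicle in AML2. The 2 starts of CST3, the protease inhibitor cystatin C, fell in AML3 (−1.49 ± 0.47 and −1.14 ± 0.38 with OTX015). The first lost the call without the first vehicle library of AML3 (−1.11) and the second without the second vehicle (−1.0) or the third OTX015 library (−0.84). The sharp start of CD63, a granule membrane tetraspanin, held 166 tags beside 5450 at a nearby promoter and did not pass (0.51 with OTX015 in AML3). Shorter lists held JUND and KLF6 as immediate early genes, SOD2 for NF-kB targets, S100A6 for S100 genes, and SNHG19 and ZFAS1 as hosts of small nucleolar RNAs. The metallothionein and interferon lists held no sharp promoter. SOD2, a mitochondrial superoxide dismutase, rose with OTX015 in AML2 (0.86 ± 0.30, adjusted p = 0.0243), a call lost without the first or second vehicle library (0.75 and 0.76) or the first or the third OTX015 library (0.86 and 0.70), and also with DESeq2 (0.87) and without the filter on low counts (0.90). KLF6 did not pass, and JUND, a subunit of the AP-1 factor, rose in AML2 with both drugs (1.81 ± 0.49 and 1.95 ± 0.47) and fell with JQ1 in AML3 (−2.97 ± 0.97).

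Of 47 pseudogene starts, 34 fell with OTX015 in AML3, 27 with JQ1 in AML3, 20 with OTX015 in AML2 and 18 with JQ1 in AML2, and 0, 0, 1 and 1 rose. Of 21 named as pseudogenes of ribosomal protein genes 18, 16, 9 and 8 fell. Over all promoters tested 25.8%, 23.8%, 20% and 18.1% fell in that order. RPL21P1 had 589, 517 and 171 CPM with OTX015 and 674, 727 and 221 with JQ1 in AML3, against 1678, 1741 and 2114 with vehicle. Its AML2 values were 463, 1038 and 712 CPM with OTX015 and 894, 468 and 987 with JQ1, against 2268, 1645 and 2039 with vehicle. No libraries overlapped, and the changes were −2.10 ± 0.44, −1.76 ± 0.44, −1.43 ± 0.43 and −1.34 ± 0.43. RPSAP19 fell in all 4 as well (−2.02, −1.76, −1.61 and −1.06). A pseudogene start can hold reads of its parent gene, and how such reads were placed is not given in the sources used here.

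Small RNA genes with sharp starts were mostly higher with drug. Of 16 starts, 12 rose and 1 fell with OTX015 in AML3, 13 and 1 with JQ1 in AML3, 11 and 0 with OTX015 in AML2, and 9 and 1 with JQ1 in AML2, with medians of 1.98, 1.73, 1.99 and 1.24. The shares of all promoters tested that rose were 28.4%, 26.5%, 20.5% and 17.1% in the same order. Among 31 wider small RNA promoters 61.3% rose and 12.9% fell with OTX015 in AML3. Together the sharp ones took 0.180% of promoter tags with OTX015 and 0.164% with JQ1, against 0.0245% with vehicle in AML3, and 0.0711% and 0.0509% against 0.0170% with vehicle in AML2. RNU4-2, the spliceosomal U4 RNA, had 134, 104 and 236 CPM with OTX015 and 93.1, 121 and 230 with JQ1 in AML3, against 6.0, 7.95 and 22.9 with vehicle (3.84 ± 0.43 and 3.75 ± 0.43). The AML2 libraries had 124, 148 and 130 CPM with OTX015 and 113, 70.3 and 103 with JQ1, against 7.83, 13.5 and 23.5 with vehicle (3.24 ± 0.41 and 2.73 ± 0.41). No library of a drug group overlapped the vehicle libraries.

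RNU12, the U12 RNA of the minor spliceosome, had 129, 95.3 and 162 CPM with OTX015, against 36.0, 29.2 and 54.4 with vehicle in AML3 (1.71 ± 0.30), and rose by 1.20 ± 0.29 in AML2. RNU7-1, the U7 RNA that matures histone mRNAs, had 54.6, 61.7 and 60.0 CPM with OTX015 and 44.3, 49.3 and 48.3 with JQ1, against 9.60, 15 and 24.3 with vehicle in AML3. In AML2 its level was 107, 138 and 107 CPM with OTX015 and 74.5, 78.3 and 62.2 with JQ1, against 7.83, 11.8 and 26.1 with vehicle. MIR320A, a microRNA gene (chr8:22102538-22102543, minus), had 80.2, 75.1 and 173 CPM with OTX015, against 0.600, 1.77 and 2.86 with vehicle in AML3 (6.06 ± 0.72), and 13, 15.6 and 78.8 with OTX015, against 4.35, 1.68 and 2.61 with vehicle in AML2 (3.41 ± 0.76). The start that fell belonged to SNORD15B, a small nucleolar RNA (−1.84 ± 0.42 with OTX015 in AML3).

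Mitochondrial members rose near the ribosomal RNA genes of that chromosome. Of 19 tested, 13, 12, 9 and 11 rose and none fell, in the order OTX015 and JQ1 in AML3 and OTX015 and JQ1 in AML2, with medians of 1.43, 1.28, 0.95 and 1.09. Over all promoters tested 28.4%, 26.5%, 20.5% and 17.1% rose in that order. A split at position 3000, chosen after the values were seen, put 14 tested members below it, of which 13, 12, 9 and 9 rose, and 5 above it, of which 0, 0, 0 and 2 rose. RNR2, the large ribosomal RNA, had 8902, 3871 and 5686 CPM at its most tagged sharp start with OTX015 and 8834, 7627 and 7115 with JQ1 in AML3, against 3034, 2961 and 1813 with vehicle. In AML2 that start had 3905, 2806 and 4486 CPM with OTX015 and 3192, 3520 and 4775 with JQ1, against 1409, 2310 and 1679 with vehicle. The changes were 1.24 ± 0.40, 1.59 ± 0.41, 1.05 ± 0.40 and 1.09 ± 0.40 (adjusted p = 0.0112, 0.00203, 0.0376 and 0.036). A further RNR2 start of the list had 558, 579 and 358 CPM with OTX015, against 131, 132 and 61.6 with vehicle in AML3 (2.19). With the first and second libraries alone, 13, 12, 8 and 7 of 20 rose. As background, mitochondrial RNAs lack the cap structure that CAGE selects for.

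Several starts were near absent in 1 condition. SCD, the stearoyl-CoA desaturase of fatty acid synthesis, had at its sharp start (16.8% of the gene's tags) 0, 1.12 and 0 CPM with OTX015 and 0.904, 0 and 0 with JQ1 in AML3, against 81.0, 86.6 and 8.59 with vehicle. Its AML2 values were 0, 2.93 and 4.26 CPM with OTX015 and 2.29, 1.78 and 1.78 with JQ1, against 14.8, 17.4 and 34.0 with vehicle. Drug and vehicle libraries did not overlap in either line. PLAC8, a small cysteine-rich protein of myeloid cells, had 2.23, 5.61 and 4.44 CPM with OTX015, against 123, 61.8 and 75.9 with vehicle in AML3 (−4.41 ± 0.47), and 3.53, 1.95 and 6.39 with OTX015, against 33.1, 30.9 and 37.9 with vehicle in AML2 (−3.23 ± 0.53). TOP2A, the topoisomerase of dividing cells, had 0, 0 and 2.22 CPM at its sharp start with OTX015, against 18.6, 28.3 and 28.6 with vehicle in AML3. The PLAC8 start held 497 tags, beside 11128 at a nearby promoter, and the TOP2A start 190, beside 1944. These values are thus not levels of the whole genes. NEAT1, a nuclear long non-coding RNA, had a sharp start with 0.5% of its tags at 25.6, 26.9 and 133 CPM with OTX015 and 20.8, 29 and 91.1 with JQ1, against 0.600, 1.77 and 0 with vehicle in AML3.

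Others were mostly seen with drug in 1 line. CFLAR, an inhibitor of caspase-8, had at a minor start 27.1, 27.3 and 36.2 CPM with OTX015 and 29.8, 25.8 and 26.7 with JQ1, against 0, 1.12 and 0 with vehicle in AML2. In AML3 it had 0, 4.49 and 0 CPM with OTX015, 0.904, 0 and 0 with JQ1 and 0 in all vehicle libraries, and its OTX015 call there (adjusted p = 0.0312) rests on 1 library. PADI4, an enzyme that turns arginine into citrulline in granulocytes, had 21.2, 8.78 and 38.3 CPM with OTX015 and 18.3, 15.1 and 37.3 with JQ1, against 2.61, 1.12 and 3.92 with vehicle in AML2, and 0 in every AML3 library. DLL1, a Notch ligand, had 36.8, 29.2 and 91.1 CPM with OTX015, against 1.80, 2.65 and 0 with vehicle in AML3 (4.73 ± 0.65), while in AML2 it stood at 0 in all 3 OTX015 libraries and at 0, 0 and 1.31 with vehicle. USP53, a ubiquitin peptidase family member, had 52.4, 46.0 and 46.7 CPM with OTX015, against 1.20, 2.65 and 2.86 with vehicle in AML3 (4.50 ± 0.42). None of CFLAR, PADI4, DLL1 and USP53 passed the test of a different drug effect in the lines, and for PADI4, with every AML3 library at 0, that test had nothing to fit in AML3.

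Starts with no matched gene held some of the largest values. The start at hg19 chr11:33914678-33914683 (minus) had 124, 127 and 79.99 CPM with OTX015 and 117, 116 and 134 with JQ1 in AML3, against 4.80, 1.77 and 1.43 with vehicle. The AML2 libraries had 94.2, 116 and 275 CPM with OTX015 and 79.1, 43.6 and 176 with JQ1, against 1.74, 0.561 and 0 with vehicle. Its log2 changes were 5.12, 5.24, 7.37 and 6.66. The start at chr5:53606541-53606546 (plus) had 162, 175 and 509 CPM with OTX015, against 0.600, 0 and 4.3 with vehicle in AML3, and 47.1, 41.0 and 324 with OTX015, against 5.22, 1.12 and 2.61 with vehicle in AML2. Of 98 such starts 41 rose and 31 fell with OTX015 in AML3, against 28.4% and 25.8% of all promoters tested. With JQ1 in AML2, 28 rose and 15 fell (17.1% and 18.1% of all).

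A start can change with its gene or against its neighbours. To separate these, each sharp start was tested against the other promoters of its cluster, chained over gaps of 500 bases or less (edgeR's diffSpliceDGE, 4739 promoters of which 326 were members, adjusted over all). Between the lines with vehicle, 1 member was higher and 6 were lower in AML3 relative to their neighbours, against 0.591% and 0.844% of all promoters tested. With OTX015 in AML3, 23 members rose and 17 fell relative to their neighbours, against 3.84% and 4.39% of all promoters tested. With JQ1 in AML3 it was 16 and 22 (3.19% and 4.14%), with OTX015 in AML2 23 and 33 (2.72% and 3.97%), and with JQ1 in AML2 13 and 34 (1.73% and 3.25%). The members that fell relative to their neighbours in AML2 were 10.1% (OTX015) and 10.4% (JQ1) of those tested, and 4.29% to 8.19% (OTX015) and 4.29% to 7.89% (JQ1) when 1 library was left out at a time. Over all promoters the numbers that fell were then 100 to 162 (OTX015) and 74 to 131 (JQ1), against 188 and 154 with all libraries.

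The sharp start of S100A6, a calcium-binding protein, lost share in AML2 while its own level did not pass the test. It held 4.88% of the tags of its cluster with OTX015 and 6.39% with JQ1, against 37.0% with vehicle in AML2, and 23.4% and 19.3% with OTX015 and JQ1, against 29.1% with vehicle in AML3. Relative to its neighbours it fell by 2.94 and 2.53 in AML2 (adjusted p = 2.71e-08 and 2.29e-07), while its own level there was 33, 38.0 and 38.3 CPM with OTX015, against 31.3, 34.2 and 37.9 with vehicle. RPS16 held 0.890% of its cluster with OTX015 and 1.35% with JQ1, against 4.17% with vehicle in AML3, and 1.88% and 1.97% with OTX015 and JQ1, against 9.94% with vehicle in AML2, with relative changes of −1.98, −1.63, −2.31 and −2.27. RPL35, RPL30 and RPS14 also fell relative to their neighbours in AML2 with both drugs. In AML3 RPL35 did too (adjusted p = 0.00493 with OTX015 and 0.0118 with JQ1), while RPL30 (0.331 and 0.301) and RPS14 (0.197 and 0.39) did not pass. Other starts gained share. That of VDAC3, a mitochondrial outer-membrane channel, held 42.9% with OTX015 and 39.7% with JQ1, against 9.04% with vehicle in AML3 (2.12 and 1.94, adjusted p = 1.45e-06 and 7.97e-06), and 15.8% and 14.2% with OTX015 and JQ1, against 10.2% with vehicle in AML2, where neither passed. That of ENGASE, which cleaves glycans from proteins, held 42.4% and 39.6% with OTX015 and JQ1, against 9.58% with vehicle in AML3, and 37.8% and 22.6% with OTX015 and JQ1, against 8.11% with vehicle in AML2, where the JQ1 change did not pass (1.41, adjusted p = 0.167). COX5B, a cytochrome oxidase subunit, gained share in AML2 (3.21% and 3.31%, against 0.360% with vehicle), as ATP5PF of the ATP synthase did in both lines (4.21 ± 3.82% and 6.45 ± 1.73%, against 0.300 ± 0.394% with vehicle in AML3, SD, n = 3). The ATP5PF start stood at 8.2 CPM with OTX015 and 8.39 with JQ1 in AML3, so these shares rest on few tags.

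**Figure D5:**
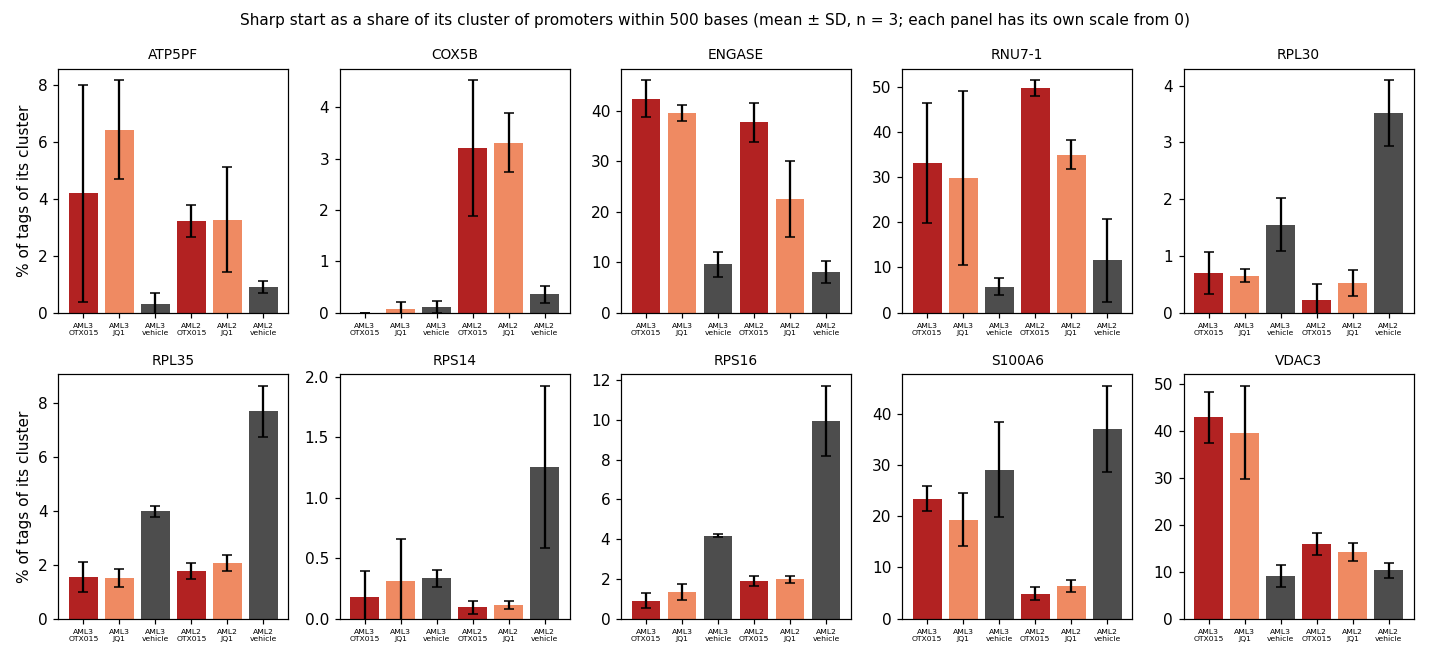
Share of the tags of its cluster held by each of 10 sharp starts, in percent (bar, mean; whiskers, SD; n = 3), in the 6 groups; each panel has its own axis from 0. S100A6 falls to 4.88% with OTX015, against 37.0% with vehicle in AML2, and VDAC3 is at 42.9% with OTX015, against 9.04% with vehicle in AML3.

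The compounds themselves were hard to tell apart. Between OTX015 and JQ1 no sharp promoter and no promoter at all (0% in each direction) passed edgeR's test in either line. At an unadjusted p under 0.05 in edgeR's test there were 16 of 491 members in AML3 and 26 of 491 in AML2. Without any difference a share of about 0.05 would be expected there, so these counts show none. DESeq2 called 0 members. With the first and second libraries alone, 1 and 2 members were higher with OTX015. The doses are not given, so a match of doses could not be checked, and a p past the threshold does not show equal action. For HEXIM1 the difference OTX015 minus JQ1 was 0.13 (95% interval −0.76 to 1.03) in AML3 and 1.10 (0.17 to 2.03) in AML2. For FTH1 it was 0.01 (−0.88 to 0.89) and 0.44 (−0.44 to 1.33). For RNU7-1 it was 0.31 (−0.30 to 0.93) and 0.70 (0.15 to 1.26), and for RPS16 −0.90 (−1.75 to −0.05) and −0.37 (−1.07 to 0.33). For ZNF143 it was 0.37 (−0.29 to 1.03) and 0.17 (−0.65 to 0.99). All 5 genes had an adjusted p of 1 in both lines, and the intervals of HEXIM1 and RNU7-1 in AML2 and RPS16 in AML3 that leave out 0 are not adjusted for the promoters tested.

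Between the lines with vehicle, 54 sharp promoters were higher and 70 lower in AML3 than in AML2, against 10.7% and 11.3% of all promoters tested. Many differences were near presence and absence. RNASE1, a secreted ribonuclease, had 58.8, 55.7 and 48.7 CPM in AML3 and at most 0.561 in AML2. BEX3, an X-linked adaptor of neurotrophin signalling, had 28.8, 27.4 and 11.5 CPM in AML3 and 0 in AML2. CLEC12A, a lectin receptor used as a marker of leukaemic myeloid cells, had 0 CPM in AML3, against 33.9, 38.7 and 30.04 in AML2. SOCS2, a suppressor of cytokine signalling, had 0 in AML3, against 46.1, 39.8 and 13.1 in AML2. APOC2, an apolipoprotein, had 13.8, 14.1 and 4.3 CPM in AML3, against 275, 162 and 119 in AML2 (−3.98 ± 0.37, adjusted p = 2e-09). HIST1H2BH was higher in AML3 by 3.27 ± 0.27, and JARID2, a partner of Polycomb complexes, by 2.10 ± 0.37. Of the 28 ribosomal protein starts 7 were lower in AML3 and none higher, with RPS16 lower by 0.92 ± 0.27 (adjusted p = 0.013). Each line is 1 culture line, so a difference between them cannot be told apart from any other difference between these lines.

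Some drug effects differed between lines in the test of the difference itself. For OTX015, 8 members had a higher and 22 a lower effect in AML3 than in AML2, against 2.14% and 4.16% of all promoters tested, and for JQ1 6 and 9 (2.25% and 3.3%). SNHG19, a host gene of small nucleolar RNAs with the TATAAA shown above, had 191, 194 and 251 CPM with OTX015 and 168, 173 and 273 with JQ1 in AML3, against 67.8, 76.9 and 67.3 with vehicle. In AML2 its level was 121, 108 and 111 CPM with OTX015 and 103, 112 and 123 with JQ1, against 248, 169 and 236 with vehicle. It rose in AML3 (1.57 ± 0.25 and 1.52 ± 0.25) and fell in AML2 (−0.94 ± 0.24 and −0.95 ± 0.24), and the effects differed by 2.51 ± 0.35 and 2.47 ± 0.35 (adjusted p = 3.30e-05 and 3.99e-05). ZFAS1, the other host gene, did not pass in any comparison with a drug. SH3BGRL3, a small thioredoxin-like protein, had 2.23, 3.36 and 0 CPM with OTX015, against 4.20, 7.95 and 10.02 with vehicle in AML3, and 71.8, 74.1 and 63.9 with OTX015, against 12.2, 5.61 and 3.92 with vehicle in AML2. PPP1R27, a regulatory subunit of protein phosphatase 1, had 2.23, 0 and 0 CPM with OTX015, against 43.8, 35.3 and 61.6 with vehicle in AML3, and 78.9, 63.4 and 164 with OTX015, against 90.5, 102 and 178 with vehicle in AML2. The sharp start of SH3BGRL3 held 381 tags, beside 7049 at a nearby promoter, and that of PPP1R27 1063, beside 5155.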

How the data were processed

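CAGE tags were counted per promoter and per gene in 18 libraries, with 3 libraries in each of 6 groups. The deposited tables hold raw tag counts as the authors made them. STAR and hg38 are named in the submitters' processing notes, with no versions, while no source used here gives the counting tool, how a promoter was defined or any filter. Of the members 522 carry hg19 names and 28 hg38 names, whether names count from 0 or 1 is not stated, and coordinates of the builds were not mixed. The enhancer table was not used, and 0 columns of per-sample values were left unused in the others.

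Counts were analysed with edgeR 4.0.16 (R 4.3.3; TMM scaling, filterByExpr, quasi-likelihood test of 1 mean per group, Benjamini-Hochberg over all promoters tested, threshold 0.05, two-sided). Standard errors are the log2 fold change divided by the square root of F. The test against neighbours used diffSpliceDGE over gaps of 500 bases or less. Shares of tags were compared by exact permutation in scipy 1.17.1. Alternatives were DESeq2 1.42.0, RLE scaling, no filter, only the groups compared, a replicate block, 1 library left out at a time, a gap of 200 bases, a width of 5 or less, 300 or more tags, and no 10 most tagged members. Leaving out the third libraries was planned for the counts and added after seeing the data for the neighbours and the share. Both tests were checked on simulated counts first.

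Symbols came from tag counts that were equal in all 18 libraries in the promoter and gene tables (81 members), or equal after summing neighbouring promoters (317 in consecutive runs, 16 not consecutive). A further 4 members held nearly all tags of a gene, and 17 with hg38 names began within 50 bases of a GENCODE 29 transcript start. The routes after equal counts and consecutive runs were chosen after seeing the data. Of all promoters matched by counts 27532 lay on the annotated chromosome and strand and 60 did not, and 4 members in conflict were left unmatched. Sequences are from RefSeq (GRCh38.p14), which held a promoter for 277 of 402 matched genes.

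The members, the gene lists and the tests were chosen with earlier results of these data known. Named members are the 10 with the highest mean CPM, the 8 largest rises and falls in the line and drug comparisons with an adjusted p under 0.05, 20 CPM or more and no overlap of libraries (with 2 unmatched each way), 4 each way for the contrast of the compounds and for differences between lines, up to 4 per list, and 5 each way against neighbours. Only some of those the rule names are printed. EEF2, RPL3, RPLP0, RPL21P1, RPSAP19, RNU12 and SNORD15B were named after their values were seen. Replicate numbers were taken to pair libraries where every correlation of deviations was over 0.1, which held for OTX015 against JQ1 alone (0.121 to 0.576). Libraries held 313300 to 2180812 tags, so a member with under 20 CPM rests on a few tags in the shallowest ones. Same-group libraries differed by more than sampling noise.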

Additional observations from a re-analysis of the deposited data

Results flagged for a closer look

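A difference of a drug effect between the lines that passed edgeR's test of the difference itself (adjusted p under 0.05) brought up the following sharp promoters. Values are log2, AML3 minus AML2, and the named ones are the 4 largest each way. No explanation was tested.

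SNHG19 had differences of 2.509 for OTX015 and 2.47 for JQ1, with levels given above. YBX3P1, a pseudogene (hg19 chr16, start 31581029), had 2.646 for OTX015 (adjusted p = 0.000716) and 2.228 for JQ1 (0.00321). It had 40.1, 43.7 and 26.7 CPM with OTX015 in AML3, against 30, 42.4 and 27.2 with vehicle, and 4.71, 10.7 and 8.52 with OTX015, against 33.1, 38.7 and 67.9 with vehicle in AML2. Its AML3 libraries overlapped and its AML2 libraries did not. The unmatched start at chr15:50411484-50411496 (minus) had 2.435 for OTX015 (adjusted p = 0.00346) and 2.299 for JQ1 (0.00416). It had 31.2, 39.3 and 37.8 CPM with OTX015, against 15.6, 13.3 and 7.16 with vehicle in AML3, and 7.07, 4.88 and 4.26 with OTX015, against 13.9, 9.54 and 9.14 with vehicle in AML2, so that groups did not overlap and the lines moved in opposite directions.

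ENGASE had a difference of 2.378 for JQ1 (adjusted p = 0.0478). It had 69.6, 68.6 and 91.1 CPM with JQ1, against 3.0, 3.53 and 4.3 with vehicle in AML3, and 8.02, 6.23 and 16.0 with JQ1, against 1.74, 2.24 and 2.61 with vehicle in AML2. Both lines were higher with drug, and the call was lost in 14 of the alternatives run, with DESeq2, without the filter, with only the groups compared and without any library of the 4 groups other than the third JQ1 library of AML2. VDAC3 had 1.752 for OTX015 (adjusted p = 0.00817), with 52.4, 39.3 and 44.4 CPM with OTX015, against 19.2, 14.1 and 8.59 with vehicle in AML3, and 15.3, 20.5 and 25.6 with OTX015, against 22.6, 20.8 and 23.5 with vehicle in AML2, where libraries overlapped.

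PPP1R27 had −5.176 for OTX015 (adjusted p = 0.000992) and −3.314 for JQ1 (0.00435), and SH3BGRL3 −4.791 (0.000155) and −3.892 (0.000774). The unmatched start at chr20:58296274-58296286 (plus) had −2.997 for OTX015 (adjusted p = 0.00086) and −3.901 for JQ1 (0.000143). It had 2.23, 3.36 and 4.44 CPM with OTX015, against 17.4, 25.6 and 22.9 with vehicle in AML3, and 71.8, 98.5 and 153 with OTX015, against 84.4, 85.3 and 92.7 with vehicle in AML2. TOP2A had −3.716 for OTX015 (adjusted p = 0.0357). It was lower with the drug in both lines, at 8.24, 5.85 and 2.13 CPM with OTX015, against 21.8, 19.6 and 15.7 with vehicle in AML2, and the call was lost in 8 of the alternatives run, DESeq2 and 7 that leave out 1 library. The unmatched start at chr6:27806378-27806387 (plus) had −2.045 for JQ1 (adjusted p = 0.0128). It had 20.8, 19.3 and 11.1 CPM with JQ1, against 33, 40.6 and 45.8 with vehicle in AML3, and 71.0, 62.3 and 37.3 with JQ1, against 14.8, 30.9 and 49.6 with vehicle in AML2, where libraries overlapped.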

How the results depend on the processing

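Of 141 results for named members, none reversed under the alternatives run, and 32 values were no longer past the threshold, beside 1749 that kept their side: those of ENGASE and TOP2A above, those of SOD2 and CST3 in the text, and that of S100A6 with OTX015 in AML3, whose fall was lost without the third vehicle library of AML3 (−0.82). The share of members that rose or fell with a drug stayed within 1.5 times its value under all alternatives run, including DESeq2. Counts of differences between lines and of changes against neighbours were less stable, and the cause was not tested where values do not show it.

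The replicate block gave 3.26% higher and 3.67% lower for the JQ1 effect, AML3 minus AML2, against 1.22% and 1.83% without it. Over all 12867 promoters tested it gave 458 higher and 617 lower, against 289 and 425 without it, so the change was not confined to members. Against neighbours the block gave 0.613% higher and 3.68% lower for AML3 against AML2 (0.307% and 1.84% without) and 8.28% higher for JQ1 in AML3 (4.91% without). The block changed no call between OTX015 and JQ1 (0 in both), where the numbers were taken to pair libraries from correlations alone (0.121 to 0.576). The labels do not state a pairing. The correlations of the other comparisons ran from −0.0511 to 0.137, so there the libraries were taken to share only a number. The first and second libraries alone gave, for differences between lines, 3.75% higher and 5.80% lower (JQ1) and 4.31% and 9.55% (OTX015, 1.63% and 4.48% with all libraries), for OTX015 against JQ1 0.375% higher in AML2 and 0.187% in AML3, and against neighbours 1.94% higher and 2.78% lower between lines and 10.3% lower for OTX015 in AML3 (5.21% with all). Over all 13663 promoters tested with these libraries, 468 were higher and 886 lower between lines for JQ1, and 490 and 1022 for OTX015. With all libraries these numbers were 289 and 425 (JQ1) and 275 and 535 (OTX015) of 12867. With 300 or more tags the differences between lines were 1.95% higher and 3.41% lower (JQ1) and 7.80% lower (OTX015). With a width of 5 or less they were 0.0% lower (JQ1), 0.0% higher and 1.02% lower (OTX015), over fewer members.

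The difference in share of tags was 1.11 points between lines, and −0.0297 with a width of 5 or less and 0.228 without the 10 most tagged members. In AML2 it was 0.362 and 0.567 points for OTX015 and 0.513 and 0.391 for JQ1 under those settings, and without the 10 it was −0.25 for OTX015 in AML3 and 0.176 for OTX015 against JQ1 in AML2 (−0.300 with all members).

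Leaving out 1 library at a time gave 8.93% to 12.7% lower in AML3 than in AML2, lowest without the second AML3 vehicle library. For the effects between lines it gave 0.768% to 1.73% higher (JQ1), 0.96% to 1.73% higher and 1.91% to 4.3% lower (OTX015). The values over 1.5 times from those with all libraries were, for JQ1, 0.768% without the second AML2 JQ1, 0.769% without the first AML3 JQ1 and 0.777% without the second AML3 vehicle library. For OTX015 they were 0.96% higher and 2.30% lower without the second AML2 OTX015 library, and 2.14% lower without the second AML2 vehicle, 2.91% without the first and 2.72% without the second AML3 vehicle, and 1.91% without the first AML3 OTX015 library. Against neighbours every library left out gave 0.0% higher between lines, and 0.576% to 1.46% lower, with 1.16% and 0.58% without the first and second AML2 vehicle and 0.58%, 0.576% and 0.857% without the first, the second and the third AML3 vehicle libraries. The drug comparisons against neighbours ranged from 2.03% to 3.51% higher and 4.29% to 7.89% lower for JQ1 in AML2, 2.32% to 4.86% and 2.58% to 6.57% for JQ1 in AML3, 2.90% to 4.87% and 4.29% to 8.19% for OTX015 in AML2, and 3.67% to 5.43% and 2.83% to 5.43% for OTX015 in AML3. For JQ1 in AML2, 2.33% and 2.03% rose without the first and second vehicle libraries, and 6.0% and 4.29% fell without the first and second JQ1 libraries. For JQ1 in AML3, 2.32%, 2.59% and 3.15% rose and 3.77%, 4.32% and 2.58% fell without the first vehicle, second vehicle and first JQ1 libraries, and 3.40% fell without the second JQ1 library. For OTX015 in AML2, 3.20%, 2.90% and 4.39% rose without the first, the second and the third vehicle, and 4.01% and 3.43% without the first and second OTX015 libraries, while 6.39% fell without the first vehicle and 4.58% and 4.29% without the first and second OTX015 libraries. For OTX015 in AML3, 4.64% and 4.04% rose without the first and second vehicle and 3.67% and 3.68% without the first and second OTX015 libraries, and 2.90% fell without the first vehicle and 2.83% without each of the first and second OTX015 libraries. Fewer libraries also widen the error. Calls over all promoters moved as well. For the OTX015 effect between lines they were 144 higher and 389 lower without the second AML2 OTX015 library, against 275 and 535 with all. Against neighbours, JQ1 in AML2 gave 49 higher and 74 lower over all promoters without the second JQ1 library, against 82 and 154. Depth limits the weak starts, as the shallowest library held 313300 tags. Apart from counting noise, the median biological variation between libraries was 20.8% for 491 sharp promoters and 18% for 11532 others.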
